A study of Dugesia japonica with 18 samples.

Results

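Of 25566 gene models of the planarian Dugesia japonica, 38 were higher in the first days after X-irradiation. By day 7 they were near or below their unirradiated level. They were chosen on measured values. Counts were divided by the library total of the gene models and multiplied by 1000000 (CPM), and the log2 value of a day is log2 of (day mean + 0.5) over (day 0 mean + 0.5). A member had a mean over the 6 days of at least 10 CPM, a log2 value of at least 0.6 on day 0.5, 1 or 3, and a day 7 value above -1 and not above 0.2. A total of 7949 gene models reached 10 CPM and 427 of these had the early rise. Of the 427, 350 were above the day 7 limit, 39 had fallen to -1 or lower, and 38 lay between.

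Whole animals about 5 mm long, of the clonal strain SSP (sexualizing super planarian), were starved for at least a week and lysed at their sampling time. There were 3 libraries labelled as biological replicates at each of days 0, 0.5, 1, 3, 5 and 7. The labels give a dose of 150 Roentgens for all groups, whereas the design text calls day 0 unirradiated, and no unirradiated animals of a later day were used here, so irradiation and elapsed time cannot be told apart. The number of animals in a library and their age are not stated in any source used here. Their messenger RNA was counted by Lasy-Seq, a method that reads 3' ends and gives each sample its own index before pooling.

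Planarians hold a body-wide population of adult stem cells, the neoblasts, which are the only somatic cells that divide and which replace every other cell type. Ionizing radiation damages DNA and removes dividing cells, while differentiated cells remain and are no longer renewed. In animals in general, irradiated cells switch on repair, cell-cycle arrest and stress genes within hours, and some of these responses fade later. Gene names for the IDs are not in the files used here, so no member was assigned to any of these processes, no marker of a tissue or cell type was checked, and no sequence is shown. In whole-body RNA, fewer cells of a type and less RNA per cell cannot be told apart.

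Library totals were from 4679195 to 12605652 counts and were lowest on days 5 and 7. A pair of libraries stood apart from the others of their day. Day 7 replicate 3 had the highest scaling factor of all 18 libraries (TMM factor 1.127, against 0.936 to 1.05 in the others), and day 0.5 replicate 1 differed most from its replicates (chi-square per degree of freedom of 9.14 and 6.49, against 3.05 to 6.70 for the other pairs of replicates). Without day 7 replicate 3 the rule found 41 gene models, of which 34 were among the 38. Without day 0.5 replicate 1 it found 35, of which 34 were. The members missed without day 0.5 replicate 1 all belong to the 6 that share a first number in their IDs.

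The rise was modest in all 38 members. The largest of the 3 early log2 values was between 0.61 and 0.89, with a median of 0.67, and 0 members reached 1, a doubling. Their mean level was between 12.3 and 1090 CPM, with a median of 38.9 CPM, and a library held from 31 to 13843 counts of a member. Together the members took 0.465 ± 0.008% of the counts on day 0, 0.656 ± 0.034% on day 0.5, 0.59 ± 0.008% on day 1, 0.592 ± 0.016% on day 3, 0.494 ± 0.01% on day 5 and 0.369 ± 0.021% on day 7 (SD, n = 3 each). The summed share was highest on day 0.5 and was lower on day 7 than on day 0. Its day 0.5 maximum rests on the 7 members that were highest then, whose summed level was 2475 ± 268 CPM on day 0.5 and 1497 ± 73.8 CPM on day 0 (SD, n = 3 each). The 16 members highest on day 1 summed to 1613 CPM on day 0.5, 1988 CPM on day 1 and 1704 CPM on day 3, and the 15 highest on day 3 to 2472, 2732 and 3171 CPM. The median log2 value over all 38 members was 0.36 on day 0.5, 0.54 on day 1 and 0.59 on day 3. The median log2 value of the members was -0.06 on day 7, and that of all 7949 gene models of at least 10 CPM was 0.13. On that day 12 members had a value above 0 and 26 a value below 0. Many members lie near a limit of the rule. The member nearest the lower limit of the early rise had a value of 0.606 and the nearest gene model outside 0.5995, and 15 members were under 0.65, while 17 gene models with a day 7 value in the range were from 0.55 to 0.6. On day 7 the highest member was at 0.177 and the nearest early riser above at 0.206, and the lowest member was at -0.948 and the nearest below at -1.05.

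**Figure D1:**
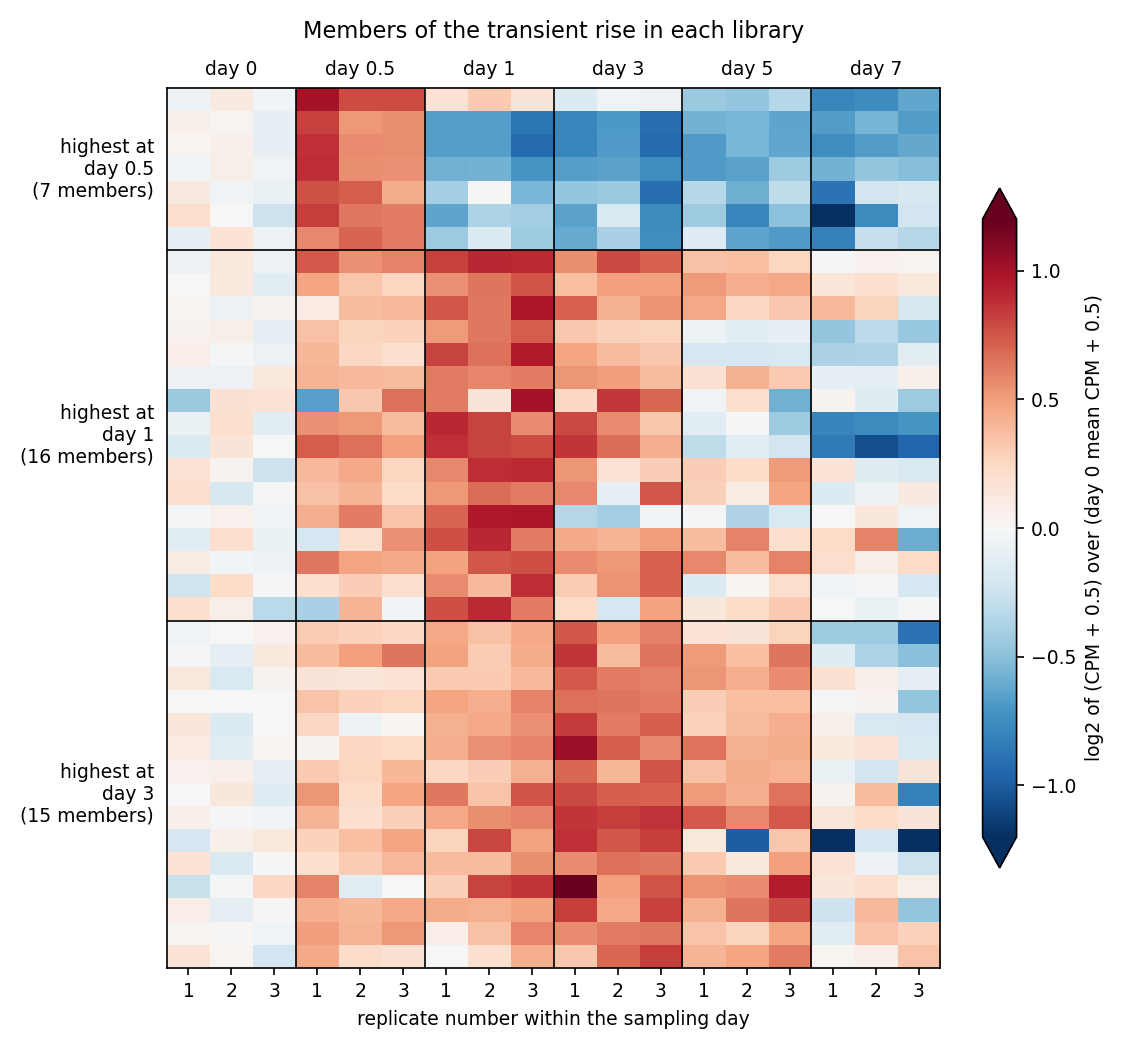
Level of the 38 members in each of the 18 libraries, as log2 of (CPM + 0.5) over (mean day 0 CPM + 0.5), red above and blue below the day 0 mean. Columns are libraries in order of day and replicate number, and rows are members, grouped by the day of their largest early value and ordered by mean CPM. The 7 members at the top are red on day 0.5 only and blue later, except 1 that is still slightly red on day 1. The 31 others are reddest mainly on days 1 and 3, and their day 0.5 values, taken from day means, are all above 0. On day 5 such values are above 0 for 10 of the 16 members highest on day 1 and 14 of the 15 highest on day 3.

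The members reached their largest early value at different times, 7 on day 0.5, 16 on day 1 and 15 on day 3 (18.4%, 42.1% and 39.5%). Over all 7949 gene models of at least 10 CPM the shares were 24.8%, 28.5% and 46.8%. All 38 passed the filter on low counts and were tested with the quasi-likelihood test of edgeR over all 17129 gene models that passed it. At its own largest day, 37 of the 38 were higher than on day 0 and all 38 were lower on day 7 than at that day (adjusted p below 0.05 by edgeR). Over all gene models tested, 15.2% were called higher at their own largest early day and 17.8% lower on day 7 than at that day. The libraries of the largest day lay above all 3 day 0 libraries for 37 members, against 27.4% of gene models tested, and above all 3 day 7 libraries for 37, against 21.7%. The rule used these contrasts, so the counts describe how far the members exceed the spread between libraries and are no evidence of the course. The exception among the early rises was a day 1 member at 49.8, 35.9 and 65.1 CPM in the day 1 libraries, against 23.6, 36.7 and 36.3 CPM in the day 0 libraries. Its groups overlapped, and its log2 change of 0.62 ± 0.24 (SE) had an adjusted p of 0.0691 by edgeR.

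The members were divided into 3 courses, by the day of the largest early value and by whether edgeR called the member lower on day 7 than on day 0. This division was made after the values were seen and is a description. In all, 7 members were highest on day 0.5. Of the 31 that were highest on day 1 or 3, 7 were called lower on day 7, and 24 were not called on day 7.

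**Figure D2:**
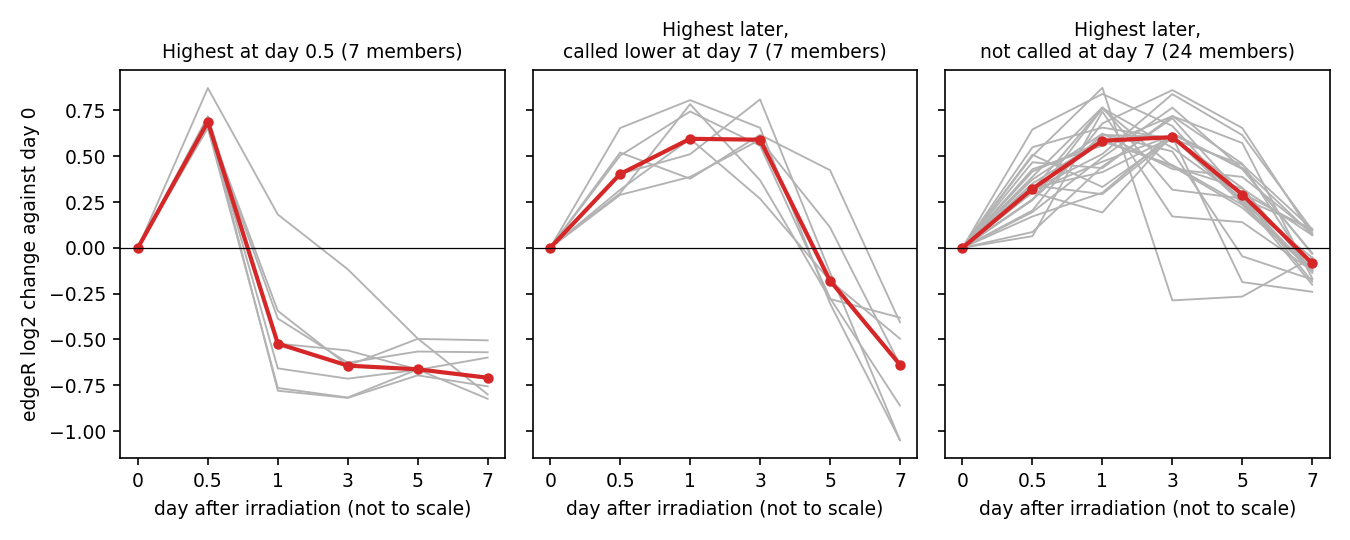
edgeR log2 change against day 0 (y axis) by day (x axis, not to scale) for each of the 38 members (grey lines), in the 3 courses; the red line and points are the median over members. The medians on day 7 are -0.71 in the 7 members highest on day 0.5, -0.64 in the 7 later members called lower on day 7, and -0.09 in the 24 others.

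In the earliest course, 6 of the 7 members were above day 0 on day 0.5 only, and DjGI005672-001 was also above it on day 1 in every library, although that change missed the threshold (adjusted p by edgeR = 0.112). All 7 were called higher than day 0 on day 0.5, with log2 changes from 0.65 to 0.87 (2.59% of all gene models tested). All 7 were lower again on day 1 than on day 0.5, with log2 changes from -1.47 to -0.69 (0.847% of all). From day 3 on, all 7 had log2 values below 0. On day 3, 6 were called lower than on day 0 (18.5% of all), and on days 5 and 7 all 7 were (20.9% and 23.2% of all). Their median log2 change was -0.66 on day 5 and -0.71 on day 7. The rule used days 0, 0.5, 1, 3 and 7, so these counts are a description.

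DjGI005672-001 had the largest rise on day 0.5 of these members. Its level was 459, 520 and 472 CPM in the day 0 libraries, 964, 831 and 832 CPM on day 0.5, 546, 601 and 538 CPM on day 1, 433, 467 and 461 CPM on day 3, 356, 351 and 382 CPM on day 5 and 282, 286 and 313.5 CPM on day 7. The day 0.5 libraries were higher than all others, and those of days 5 and 7 were lower than all of day 0. It averaged 876 ± 76.5 CPM on day 0.5 and 484 ± 31.8 CPM on day 0 (SD, n = 3 each). Its edgeR log2 change, with TMM scaling, was 0.87 ± 0.08 (SE; adjusted p by edgeR = 1.18e-08). The member was named for this contrast, which the rule had also used, so the change is a description and no independent test. Each later step was a fall that passed the test, with log2 changes of -0.69 from day 0.5 to day 1 (adjusted p by edgeR = 2.74e-06), -0.30 to day 3 (adjusted p by edgeR = 0.0341), -0.38 to day 5 (adjusted p by edgeR = 0.00906) and -0.31 to day 7 (adjusted p by edgeR = 0.0392). Its mean was lower on each later day than on the day sampled before.

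The 6 others of the earliest course carry the same first number in their IDs, so the course rests on 2 numbers. The table lists 11 IDs with that number. The 2 with the most counts averaged 377 and 375 CPM and stood in a ratio between 0.964 and 1.09 in every library, so reads could have been split between near-identical copies, and the 6 are no independent observations. Summed over the 6 members, the level was 1043.5, 1047 and 948 CPM on day 0, 1821, 1485 and 1493 CPM on day 0.5, 647, 654 and 554 CPM on day 1, 594, 639 and 540 CPM on day 3, 663, 686 and 666 CPM on day 5 and 619, 671 and 662 CPM on day 7. The day 0.5 libraries were above all others, replicate 1 most, and from day 1 on every library was below every day 0 library. Without day 0.5 replicate 1, the log2 value of this sum on day 0.5 was under the limit of 0.6. The 2 members with the most counts also missed the rule without it. The step from day 0.5 to day 1 took the 6 members down, with log2 changes from -1.47 to -1.02, and none of the 6 was called by edgeR in any later step (lowest edgeR adjusted p of 0.465, 0.691 and 0.784 in the steps to days 3, 5 and 7). From day 1 on, the summed level of a library was between 540 and 686 CPM. With counts summed over all 11 IDs the log2 values were 0.64 on day 0.5, -0.68 on day 1 and -0.61 on day 7. This sum also meets the rule with all libraries, but not without day 0.5 replicate 1. Of the 5 IDs that are no members, with means between 6.1 and 17.7 CPM, 4 had a value above 0 on day 0.5 and 4 a value below 0 on day 1. They took no common course. In 1 of them the values were 0.42 on day 0.5 and -0.46 on day 1. Another stayed above day 0, with 0.32 on day 0.5, 0.62 on day 1 and 0.70 on day 7. The remaining ones lay between -0.009 and 0.10 on day 0.5.

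**Figure D3:**
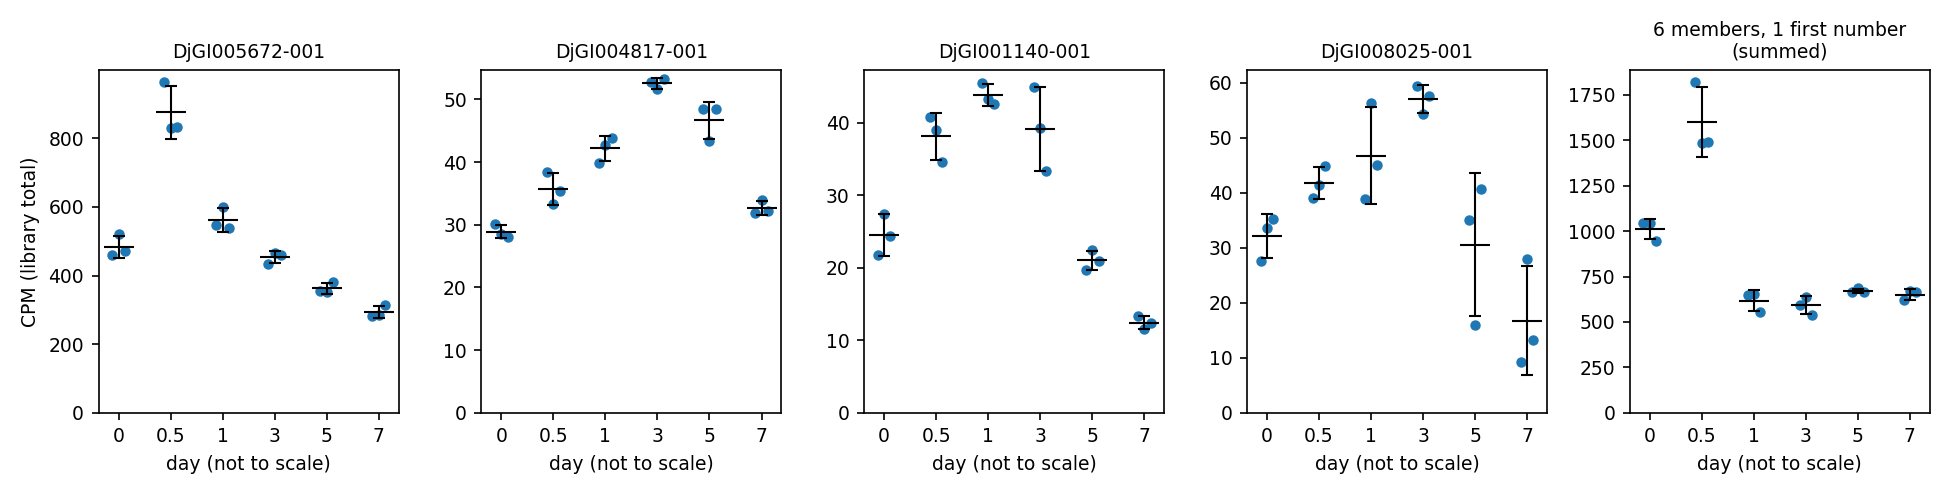
CPM (y axis, from 0) by day (x axis, not to scale) in each of the 3 libraries (points), with the mean and SD (black bars), for 4 members and for the sum of the 6 members that share a first number. DjGI005672-001 and the sum are highest on day 0.5 and below day 0 on day 7, DjGI004817-001 is highest on day 3 and near day 0 on day 7, and DjGI001140-001 and DjGI008025-001 end below day 0.

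Of the 7 later members that ended below day 0, 4 were highest on day 1 and 3 on day 3. Their median log2 change against day 0 was 0.40 on day 0.5, 0.595 on day 1, 0.59 on day 3, -0.18 on day 5 and -0.64 on day 7. Between days 1 and 3, 2 of the 7 fell by edgeR, against 2.48% of all gene models tested. Between days 3 and 5, 6 fell (1.1% of all), and between days 5 and 7, 4 fell (1.62% of all). Among gene models of at least 10 CPM these shares were 4.29%, 2.09% and 3.27%. The 7 were grouped by a lower call on day 7, so the later falls were in part fixed by the grouping. In the 14 members called lower on day 7, counting both courses, the log2 change was between -1.05 and -0.38. The 3 day 7 libraries lay below all 3 day 0 libraries for 12 of all 38 members, against 23.2% of gene models tested.

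DjGI001140-001 fell most from day 1 to day 7 among the members that were highest on day 1 and averaged at least 20 CPM. It had 21.7, 27.4 and 24.4 CPM on day 0, 40.8, 39.0 and 34.5 CPM on day 0.5, 45.5, 43.2 and 42.6 CPM on day 1, 44.9, 39.2 and 33.3 CPM on day 3, 19.7, 22.4 and 20.9 CPM on day 5 and 13.4, 11.5 and 12.4 CPM on day 7. The day 7 libraries were the lowest of all, and those of days 0.5, 1 and 3 were all above day 0. It averaged 12.5 ± 0.92 CPM on day 7 and 43.8 ± 1.54 CPM on day 1 (SD, n = 3 each). Its edgeR log2 change, with TMM scaling, was -1.86 ± 0.14 (SE; adjusted p by edgeR = 2.15e-11). The member was named for this contrast, and the rule had used both days, so the change is a description and no independent test. Against day 0 its log2 change was 0.81 ± 0.12 on day 1 (SE; adjusted p by edgeR = 9.66e-06) and -1.05 ± 0.14 on day 7 (SE; adjusted p by edgeR = 7.41e-07). Another ID with its first number is also a member, and the counts of both IDs stood in a ratio between 0.783 and 1.12, so reads may have been divided between them.

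DjGI008025-001 was among the members furthest below day 0 on day 7, and the spread between its libraries was wide. It had 27.7, 33.6 and 35.2 CPM on day 0, 39.0, 41.4 and 44.9 CPM on day 0.5, 38.9, 56.4 and 45.1 CPM on day 1, 59.4, 54.4 and 57.6 CPM on day 3, 35.1, 16.0 and 40.7 CPM on day 5 and 9.17, 28.0 and 13.2 CPM on day 7. Its day 3 libraries stood above those of day 0 with no overlap, while day 7 replicate 2 was inside the range of day 0. The log2 change was 0.81 ± 0.22 on day 3 (SE; adjusted p by edgeR = 0.00531) and -1.05 ± 0.26 on day 7 (SE; adjusted p by edgeR = 0.00178). The rule had used both contrasts and the member was named for the second, so these changes are a description. Without day 7 replicate 2 the day 7 change was -1.62, and it was -0.80 and -0.84 without replicates 1 and 3.

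The member with the most counts took the same course. It had 915, 948 and 981 CPM on day 0, 1169, 1146 and 1125 CPM on day 0.5, 1304, 1207 and 1303 CPM on day 1, 1586, 1331 and 1439 CPM on day 3, 1065, 1052 and 1138 CPM on day 5 and 706, 699 and 511 CPM on day 7. Every library of days 0.5 to 5 was above every day 0 library, and every day 7 library was below. Its log2 change was 0.59 ± 0.11 on day 3 (SE; adjusted p by edgeR = 0.000189), 0.11 ± 0.11 on day 5 (SE; adjusted p by edgeR = 0.482) and -0.64 ± 0.11 on day 7 (SE; adjusted p by edgeR = 4.91e-05).

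The 24 remaining members came back to near their day 0 level on day 7. Their median log2 change against day 0 was 0.32 on day 0.5, 0.585 on day 1, 0.60 on day 3, 0.29 on day 5 and -0.09 on day 7. On day 7 the changes ranged from -0.24 to 0.10, with standard errors from 0.083 to 0.26, and a change that missed the threshold does not show that the level was equal to day 0. On day 5, 12 of the 24 were still called higher than day 0 by edgeR, against 14.8% of all gene models tested and 26.2% of those of at least 10 CPM.

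DjGI004817-001 had the largest rise on day 3 among the members that were highest then and averaged at least 20 CPM. It had 30.1, 28.6 and 28.0 CPM on day 0, 38.4, 33.3 and 35.4 CPM on day 0.5, 39.9, 42.8 and 43.8 CPM on day 1, 52.8, 51.6 and 53.2 CPM on day 3, 48.4, 43.3 and 48.4 CPM on day 5 and 31.9, 34.0 and 32.2 CPM on day 7. The libraries of days 0.5 to 7 were all above those of day 0, by little on day 7. It averaged 52.5 ± 0.87 CPM on day 3 and 28.9 ± 1.10 CPM on day 0 (SD, n = 3 each). Its edgeR log2 change, with TMM scaling, was 0.84 ± 0.094 (SE; adjusted p by edgeR = 6.55e-08). The member was named for this contrast, which the rule had also used, so the change is a description and no independent test. This member was still 0.62 ± 0.097 higher on the log2 scale on day 5 (SE; adjusted p by edgeR = 9.7e-06) and changed by -0.52 ± 0.10 from day 5 to day 7 (SE; adjusted p by edgeR = 0.00321). On day 7 its log2 change against day 0 was 0.10 ± 0.10 (SE; adjusted p by edgeR = 0.472).

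Of the members highest on day 1, the one with the most counts also came back to its day 0 range. It had 580, 664 and 578 CPM on day 0, 1013, 887 and 919 CPM on day 0.5, 1070, 1140 and 1130 CPM on day 1, 892, 1054 and 990 CPM on day 3, 777, 782 and 726.5 CPM on day 5 and 602, 629 and 621 CPM on day 7. The libraries of days 0.5 to 5 were above all of day 0, and those of day 7 lay within the range of day 0. Its log2 change was 0.84 ± 0.083 on day 1 (SE; adjusted p by edgeR = 1.3e-08), and its log2 changes of -0.42 between days 3 and 5 and -0.30 between days 5 and 7 also passed the test (adjusted p by edgeR = 0.00395 and 0.0479).

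Read by day over all 38 members, 20 were called higher than day 0 on day 0.5 by edgeR, against 2.59% of all gene models tested, and 0 were lower, against 7.44%. On day 1, 26 were higher and 4 lower (7.15% and 12.8% of all), and on day 3, 26 were higher and 6 lower (13.3% and 18.5% of all). On day 7, 14 were lower and 0 higher, against 23.2% and 18.4% of all gene models tested. In all, 14 members had an unadjusted p below 0.05 on day 7 in either direction, and DESeq2 also called 14 lower and 0 higher. The median log2 change of the members was 0.38 on day 0.5, 0.51 on day 1, 0.57 on day 3 and -0.15 on day 7, and that of all gene models tested was between -0.0055 and 0.0238 at the same days. Among only the 7949 gene models of at least 10 CPM the background was 5.13% higher on day 0.5, 13.7% on day 1, 25% on day 3 and 26.2% on day 5, and 28.4% lower on day 7. Nothing is read from the counts on days 0.5, 1, 3 and 7, since the rule used the same contrasts. These counts also take the 6 members that share a first number separately, although they are no independent observations.

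Day 5 entered the rule only through the floor of 10 CPM, although the day 0 libraries are shared with it. By edgeR, 13 members were called higher on day 5 than on day 0 and 8 lower, against 14.8% and 20.9% of all gene models tested, and 17 missed the threshold. Their median log2 change was 0.24, against 0.02 over all gene models tested. Among gene models of at least 10 CPM, 26.2% were higher and 24.9% lower on day 5, with a median of 0.09. The share of members that were lower was close to these backgrounds. The members differed by the day of their largest value. Among those highest on day 0.5, all 7 were lower, of which 6 share a first number and are no independent observations. Among those highest on day 1, 3 of 16 were higher and 1 lower, with a median of 33.3% of the early rise left on the log2 scale. Among those highest on day 3, 10 of 15 were higher, with a median of 65.3% left. The 13 became 7 without day 0 replicate 2 and 7 without day 5 replicate 3. With library totals in place of TMM 19 were higher and 6 lower on day 5, and with upper-quartile scaling 16 and 6.

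The steps between successive days describe the courses further. In each step, 25 to 33 of the 38 members were not called in either direction. From day 0.5 to day 1, 7 members fell and 1 rose, against 0.847% and 0.234% of all gene models tested by edgeR. The 7 that fell are the members of the earliest course, of which 6 share a first number and are no independent observations. From day 1 to day 3, 4 fell and 1 rose (2.48% and 0.543% of all). Between days 3 and 5, 8 fell (1.1% of all), and between days 5 and 7, 13 fell (1.62% of all), of which 9 were highest on day 3. Between day 1 and day 7, 30 of the 38 fell, against 12% of all. Among gene models of at least 10 CPM, a level that all members reach, the shares that fell were larger. They were 1.21% from day 0.5 to day 1, 4.29% to day 3, 2.09% to day 5 and 3.27% to day 7. Between day 1 and day 7 the share was 19.9%. The day 0, 0.5, 1, 3 and 7 libraries chose the members, and the choice itself favours a later fall, so these counts are no independent test. The 8 became 5 without day 3 replicate 2 or day 5 replicate 1 or 2. The 13 became 6 without day 5 replicate 2 or 3, and 5 without day 7 replicate 3.

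Day 7 replicate 3 was the lowest of the 3 day 7 libraries in CPM for 18 of the 38 members (47.4%), replicate 1 for 15 and replicate 2 for 5. Over all gene models of at least 10 CPM the shares were 24.9% for replicate 3, 40.7% for replicate 1 and 34.3% for replicate 2. Its part in the low day 7 values of the members was not tested beyond leaving it out, which gave 13 members lower on day 7 than on day 0, against 14, and 23 falls between day 1 and day 7, against 30.

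To read the course in libraries that did not choose the members, the rule was applied to 2 libraries of each day and the chosen gene models were read in the third, for each replicate number in turn. With replicate 1, 2 or 3 left out, the rule chose 41, 58 and 45 gene models, of which 25, 30 and 26 were among the 38. The median log2 value at the largest early day was 0.70, 0.70 and 0.67 in the libraries that chose, and 0.62, 0.49 and 0.61 in those left out. In the libraries left out, 38 of 41, 53 of 58 and 44 of 45 were above day 0 at that day (92.7%, 91.4% and 97.8%), against 58.2%, 51.3% and 64.2% of all gene models of at least 10 CPM at the same days. A value of at least 0.6 at that day was found in 53.7%, 31.0% and 51.1% of the chosen, against 5.53%, 3.43% and 9.12% of all.

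On day 7, a value of at most 0.2 was found in the libraries left out in 29 of 41, 46 of 58 and 34 of 45 of the chosen (70.7%, 79.3% and 75.6%), against 60.7%, 65.8% and 47% of all gene models of at least 10 CPM. The largest early day was above day 7 in 35 of 41, 57 of 58 and 37 of 45 of the chosen (85.4%, 98.3% and 82.2%), against 52.2%, 50.6% and 41.1% of all. The median day 7 value of the chosen was 0.0033, -0.20 and -0.21. The whole rule of an early rise and a return was met by 14, 12 and 16 of the chosen in the single libraries left out, or 34.1%, 20.7% and 35.6%, against 1.26%, 0.866% and 1.34% of all. The gene models are not independent of each other, and no test was made. Of the 38 members, 13 were chosen whichever replicate number was left out, and 11 were also chosen under each of 4 other scalings and without each single library. These 11 were 1 of the 7 members highest on day 0.5, which is DjGI005672-001, 6 of the 16 highest on day 1 and 4 of the 15 highest on day 3. The other named members, DjGI004817-001, DjGI001140-001 and DjGI008025-001, were each missed by the rule without some single library and without some replicate number, and DjGI001140-001 also under another scaling.

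**Figure D4:**
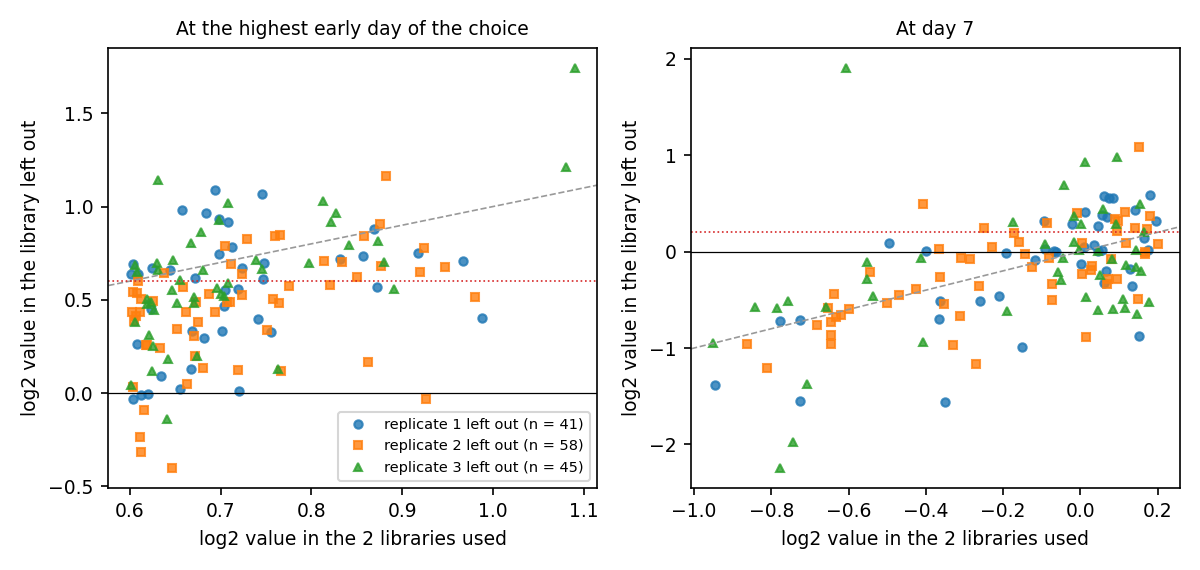
Log2 values over day 0 of gene models chosen by the rule on 2 libraries of each day (x axis) and read in the library left out (y axis), at the largest early day of the choice (left) and on day 7 (right). Symbols mark the replicate number left out, the dashed line marks equal values, and the dotted red lines mark the limits of 0.6 and 0.2. Most points on the left are above 0, and 63 of the 144 reach 0.6 in the library left out. A gene model chosen with several replicate numbers left out is shown as several points, so the 144 are not all different gene models.

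Among the 427 early risers, the members were set beside the 350 that stayed above the day 7 limit and the 39 that fell to -1 or lower. Their largest early value had a median log2 value of 0.67 in the members, 0.70 in those that stayed high and 0.72 in those that fell. The day of that value was not the same for all. It was day 0.5 for 18.4% of the members, 2% of those that stayed high and 5.13% of those that fell, day 1 for 42.1%, 18% and 87.2%, and day 3 for 39.5%, 80% and 7.69%. Of the 7 members highest on day 0.5, 6 share a first number. On day 5, 22 of the 38 members (57.9%) had a log2 value above 0.2, against 348 of the 350 that stayed high (99.4%), 1 of the 39 that fell and 46.7% of all gene models of at least 10 CPM. The mean level had a median of 38.9 CPM in the members, 42.8 CPM in those that stayed high and 108 CPM in those that fell. The coefficient of variation between libraries of a day had a median of 9.61%, 10.1% and 12.5% in these sets, and 10.1% in all gene models of at least 10 CPM. These sets were parted by their day 7 values, and no difference between them was tested.

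**Figure D5:**
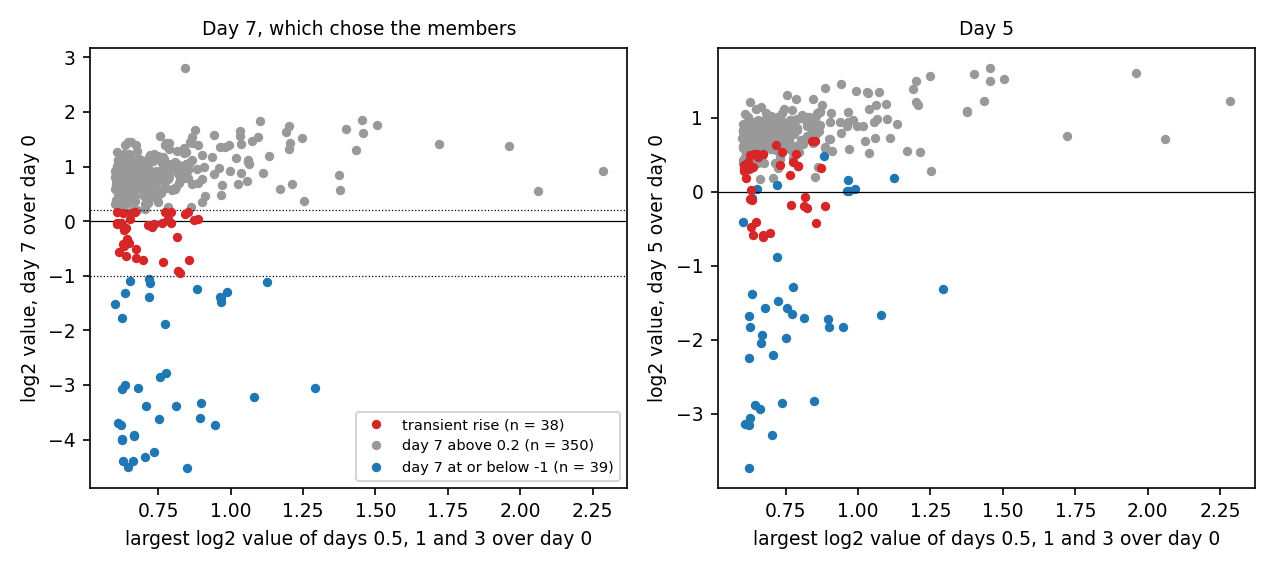
The 427 gene models of at least 10 CPM with an early log2 value of at least 0.6. The x axis gives the largest log2 value of days 0.5, 1 and 3 over day 0, and the y axis the log2 value on day 7 (left) or day 5 (right); red points are the 38 members, grey the 350 above the day 7 limit and blue the 39 at or below -1. Dotted lines mark the day 7 limits of 0.2 and -1. On day 5 the members lie between -0.61 and 0.70, mostly below the grey points and above the blue ones.

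The members carry 32 different first numbers in their IDs. Of the 38, 11 had another ID of the same first number at 10 CPM or more (28.9%), against 24.2% of all gene models at that level, and levels of such IDs are uncertain. With counts summed over first numbers the rule found 30, of which 29 were among the 32.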

How the data were processed

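Per the labels, 3' mRNA libraries were made with Lasy-Seq from whole bodies. Per the submitters' processing notes, fastp 0.21.0, BWA 0.7.17-r1188 and Salmon were used, with no role or order given. No source used here says how the reference and gene models were made. The authors deposited estimated counts per gene model, not normalized. Of 25658 rows, 92 are ERCC controls (0.004% of counts) and did not enter library totals or tests. In that table, values that were not whole numbered 38, and these were rounded before testing. A table deposited by the authors gives each library's total (used here as a score that was checked against the computed totals), its count of rows above 0, and its day, the same as in the titles for all 18 libraries. Groups came from the titles. Replicates differed by more than sampling noise in all 18 pairs (chi-square per degree of freedom of 3.05 or more, over gene models with at least 20 counts in a pair). Nothing says how replicates were separated, so p-values measure the spread between these libraries, which may be technical.

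edgeR 4.0.16 (R 4.3.3) was fitted to all 18 libraries with 1 mean per day, TMM scaling and the default filter by group (minimum count 10, minimum total 15), which left 17129 gene models. Two-sided p-values were adjusted by Benjamini-Hochberg over all gene models tested, and the threshold was an adjusted p of 0.05. The SE is the size of the log2 change over the square root of F, an approximation. CPM and log2 values use library totals, and log2 changes use TMM, which moves gene models of at least 10 CPM by -0.08 to 0.02 in the median. Counts of 3' ends are not divided by length, so no order of levels between gene models is meant. Alternatives were DESeq2 1.42.0, other scalings and filters, a replicate block, a fit of only the 6 libraries compared, and leaving out each library. For the rule, other limits, scalings and libraries were tried.

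The members and lists were chosen with earlier results of these data known. The 4 named members average at least 20 CPM. They are the largest rise among members highest on day 0.5 and on day 3, the largest fall from day 1 to day 7 among those highest on day 1, and then the lowest on day 7 against day 0, all called by edgeR and, except in the last case, with no overlap of libraries. Without gene names at most 4 IDs are given. Lists of marker and pathway genes could not be matched. The contrasts of day 7 with days 0.5 and 3, the division into courses, and the members shown without an ID were chosen after seeing the data.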

Additional observations from a re-analysis of the deposited data

Results flagged for a closer look

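Some members' changes against day 0 differed between successive sampling days by a test of the step itself. By edgeR, 7 members were lower on day 1 than on day 0.5 (0.847% of all gene models tested), 4 on day 3 than on day 1 (2.48%), 8 on day 5 than on day 3 (1.1%) and 13 on day 7 than on day 5 (1.62%). Among gene models of at least 10 CPM these shares were 1.21%, 4.29%, 2.09% and 3.27%. Of the 7 members lower on day 1, 6 share a first number and are no independent observations. In these steps, 30, 33, 30 and 25 of the 38 members were not called in either direction. Among the named members, DjGI005672-001 had a log2 change of -0.69 between days 0.5 and 1 (adjusted p by edgeR = 2.74e-06) and DjGI004817-001 had one of -0.52 between days 5 and 7 (adjusted p by edgeR = 0.00321). Between days 3 and 5, DjGI001140-001 changed by -0.96 on the log2 scale (adjusted p by edgeR = 8.39e-06) and DjGI008025-001 by -0.94 (adjusted p by edgeR = 0.0301). The rule chose the members for an early rise and a later return, so these steps describe the course and were in part fixed by the choice. Groups of 3 libraries are too small for a test of single outlying libraries.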

How the results depend on the processing

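The number of members depends on the limits of the rule. It was 62 with scaling by the ERCC controls, 51 with upper-quartile scaling, 8 and 0 with an early rise of at least 0.8 and 1, 25 with a floor of 20 CPM, 25 with a pseudocount of 5 CPM and 26 with a day 7 limit of 0, against 38. Leaving out libraries gave 33 to 58 members, the highest without replicate 2 of every day. With ERCC scaling, which rests on 190 to 487 control counts in a library, 9 members were higher on day 0.5 (20 with TMM), 5 lower on day 5 (8), 4 lower on day 5 against day 3 (8) and 5 lower on day 7 against day 5 (13). In the libraries left out, 67 of the choices met the whole rule under ERCC scaling and 60 under the upper-quartile one, against 42, a check added after seeing the data. Library totals and upper-quartile scaling moved the median of all gene models on day 7 to 0.105 and 0.116 (log2), against 0.0238. The 6 members with a shared number kept log2 changes of 0.62 to 0.76 on day 0.5 and -0.84 to -0.41 on day 7 in 9 alternatives. None of the 9 left out a single library, and without day 0.5 replicate 1 several of the 6 missed the rule. With only the 6 libraries compared, 4 were lower on day 7 against day 5. The cause of these differences was not tested. Of the 104 counts under settings other than leaving out libraries, 93 stayed within 1.5 times the reported count. In 9 of the 104 the count was 0 members higher on day 7, which the day 7 limit favoured. Others count members higher on days 0.5, 1 and 3, which the rule chose, so the 93 were in part fixed by the choice. Leaving out libraries gave 14 to 26 members higher on day 0.5, 18 to 28 on day 1, 24 to 28 on day 3 and 7 to 15 on day 5. On day 7, 1 member was higher without day 7 replicate 3 and 0 without any other library. Without single libraries, 6 to 9 were lower on day 5, 13 to 16 on day 7, 5 to 10 on day 5 against day 3, 5 to 14 on day 7 against day 5 and 23 to 30 on day 7 against day 1. The log2 change for which each of the 4 named members was chosen kept its direction and passed the threshold in all 108 alternatives. These refits share most libraries with the choice, which took called and extreme changes, so passing was in part fixed by it. Of the 4, DjGI005672-001 alone met the rule under all scalings and omissions of libraries. With the replicate block, 20, 26, 27 and 13 members were higher on days 0.5, 1, 3 and 5 and 14 lower on day 7, within 1 of the counts without it. Deviations of libraries with the same number correlated from -0.0976 to 0.124 over 45 pairs, of which 3 exceeded 0.1. Such correlations cannot show whether libraries of the same number were handled together. Depth limits the least abundant members most, with a median of 88.5 counts a library at the lowest.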
